A study of Mus musculus with 12 samples.

Results

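Glucose that enters a liver cell is committed to glycolysis by a small number of enzymes, and the 8 genes described here encode those enzymes or partner forms of them: the hexokinases Hk1 and Hk2, the liver phosphofructokinase Pfkl, the bifunctional kinase/phosphatases Pfkfb1 and Pfkfb2, the aldolase Aldoc, and the pyruvate kinases Pklr and Pkm. They were taken by gene name from the 54532 genes counted in each liver library. Each name matched 1 gene, and all 8 had enough counts to be tested in every comparison.

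Livers came from male mice with floxed PPARγ alleles, injected at 8 weeks of age with an AAV8 vector in which the thyroxine-binding globulin (TBG) promoter drove either Cre recombinase (PPARγ-KO) or eGFP (the control littermates, labelled WT and called wild-type). Both genotypes then ate the fast-food diet (FFD), high in saturated fat, cholesterol and sucrose, with fructose and glucose in the drinking water, for 2 or 5 months. Each of the 4 groups had 3 libraries. All groups shared the floxed alleles, the viral vector and the diet, no chow-fed group was analysed here, and TBG drives Cre in hepatocytes, so other liver cells keep the floxed alleles.

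Libraries held 16367775 to 27452284 counts. Levels are given as normalized CPM, each library's counts scaled to a common library size, after adjusting all 12 libraries by edgeR's TMM method, and a gene is said to be called, or to rise or fall, where its Benjamini-Hochberg adjusted p over all genes tested was below 0.05 in edgeR's two-sided quasi-likelihood F-test. The summed reads of the targeted gene, Pparg, did not fall but were called higher in libraries labelled PPARγ-KO. In log2 units the difference was 0.52 at 2 months (edgeR adjusted p = 0.0309, lost in 6 of 15 alternatives). It was 1.15 at 5 months (edgeR adjusted p = 2.57e-06, kept in all 15). At 2 months Pparg measured 38.8, 41.4 and 37.6 CPM in wild-type and 50.4, 66.5 and 52.0 CPM where the label was PPARγ-KO. At 5 months the 3 values were 36.9, 41.4 and 37.1 CPM in wild-type, below the 86.5, 92.9 and 75.0 CPM of the other genotype. Counts are per gene, so the floxed exons could not be read apart, and this sum checks neither the deletion nor the protein. Cfd, an adipose gene that PPARγ is known to induce, had 0 counts in each of the 6 libraries labelled PPARγ-KO. In wild-type it had 599 in replicate 1 at 2 months and 70 to 120 in the other libraries. By edgeR it was not called at 2 months and was called lower at 5 months. Cfd was named after its values were seen, so it is no test of the deletion. Directions below follow the labels. The 8 hepatocyte markers were present in every library, with a summed level of 57680 to 69914 CPM in wild-type and 76786 to 89520 CPM in libraries labelled PPARγ-KO. Alb made up most of this sum, with a mean of 44907 of 64756 CPM in wild-type at 2 months. At 5 months 7 of the 8 had a higher log2 value and 1 a lower one.

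Hexokinases trap glucose as glucose 6-phosphate. Hk1 and Hk2 are the high-affinity forms of most tissues other than liver and of dedifferentiated or tumor cells, and are low in healthy hepatocytes. Pfkl carries out the committed step, Pfkfb enzymes make and remove the fructose bisphosphate that switches it on, aldolase splits the sugar, and pyruvate kinase closes the pathway. Pklr is the liver and red cell pyruvate kinase, and its gene is a textbook target of ChREBP (encoded by Mlxipl), the transcription factor that carries the glucose signal to lipogenic and glycolytic genes, whereas Pkm encodes the muscle and proliferating-cell forms.

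The genes lie apart on mm10, as the deposited tables place them: Hk1 at chr10:62268855-62379908 and Pfkl at chr10:77986947-78010083, Hk2 at chr6:82725025-82774454 and Pfkfb2 at chr1:130689182-130729253, all on the minus strand, and Pfkfb1 at chrX:150588229-150643878, Aldoc at chr11:78322968-78327781, Pklr at chr3:89136142-89146784 and Pkm at chr9:59656368-59679375 on the plus strand.

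Because Hk2 and Pklr were the members called at both times, in opposite directions, their promoters are shown. The 250 bases before each start are printed 5′ to 3′ on the gene's strand, from RefSeq on GRCm38.p6 (the mm10 assembly), which held 17 such windows for the 8 members. Capitals in the Pklr window mark the only match among those 17 to the carbohydrate response element CACGNGNNNNNCNCGTG, which reads the same on both strands and begins 170 bases before the start. The Hk2 window has no capitals because it held no match to that element or to the E-box CACGTG.
Pklr, liver-type start, chr3:89136373-89136622, plus strand: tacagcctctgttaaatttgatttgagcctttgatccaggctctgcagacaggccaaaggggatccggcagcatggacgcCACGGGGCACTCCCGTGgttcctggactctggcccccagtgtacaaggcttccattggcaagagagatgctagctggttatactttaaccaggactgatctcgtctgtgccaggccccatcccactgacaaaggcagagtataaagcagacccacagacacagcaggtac
Hk2, chr6:82774455-82774704, minus strand: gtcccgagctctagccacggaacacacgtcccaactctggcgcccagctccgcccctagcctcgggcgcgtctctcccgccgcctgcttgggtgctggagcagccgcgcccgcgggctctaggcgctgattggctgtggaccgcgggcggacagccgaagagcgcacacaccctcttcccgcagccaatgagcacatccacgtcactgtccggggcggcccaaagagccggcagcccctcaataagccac
Of 32817 promoter windows of this length in the table, 13 (0.0396%) held the carbohydrate response element and 6.02% held CACGTG, which among members was found only in 1 of the 3 Pfkfb2 windows. The half-site AGGTCA, searched on both strands, stood in 14.0% of all windows and in 1 window each of Pfkfb1, Pkm and Pklr, there in the upstream window at the red-cell start. The hypoxia core GCGTG, also searched on both strands, stood in 28.1% of all windows and in windows of 5 members, Hk1, Pfkl, Pfkfb1, Pfkfb2 and Aldoc. These are letter matches, not tested sites, and the counts, which are per gene, do not tell the 2 Pklr starts apart. Pklr was already a textbook ChREBP target, so its match to the carbohydrate response element was foreseen and is not read as a result.

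Hk2 was the member with the largest difference between genotypes at both times. At 2 months it measured 5.56, 11.7 and 9.28 CPM in the wild-type libraries and 2.64, 2.05 and 1.97 CPM in those labelled PPARγ-KO. At 5 months the values were 8.77, 12.8 and 13.8 CPM in wild-type and 3.49, 2.26 and 3.72 CPM in libraries labelled PPARγ-KO. Every wild-type library was above every library labelled PPARγ-KO at the same time, although the wild-type libraries themselves ranged widely at 2 months. On the log2 scale Hk2 fell by 2.00 at 2 months (edgeR adjusted p = 0.00776, SE 0.280), to 0.250 of the wild-type level, and by 1.90 at 5 months (SE 0.217, edgeR adjusted p = 1.33e-04), to 0.268. The counts behind these values were 36 to 74 in the libraries labelled PPARγ-KO and 102 to 264 in wild-type. Hk2 stayed called in each of the 15 alternatives at each time, some of which only changed the threshold on the main fit.

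Hk1, the housekeeping hexokinase, was low throughout and was not called in any comparison. At 2 months it measured 5.89, 7.20 and 7.05 CPM in wild-type and 5.28, 5.53 and 5.51 CPM in libraries labelled PPARγ-KO, a log2 difference of -0.31 (95% interval -0.65 to 0.04, edgeR adjusted p = 0.329). The groups did not overlap there, but the gap was small beside the spread. At 5 months wild-type gave 5.21, 8.74 and 8.98 CPM and PPARγ-KO 5.80, 5.74 and 6.56 CPM, with wild-type replicate 1 below all 3 of the other genotype (log2 difference -0.34, interval -0.76 to 0.08, edgeR adjusted p = 0.270). Without that library Hk1 was called lower (-0.55, edgeR adjusted p = 0.0150).

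Hk3, a hexokinase of myeloid cells, fell by 1.25 at 5 months (SE 0.256, edgeR adjusted p = 0.0171), from 15.9 to 23.5 CPM in wild-type to 6.06 to 11.7 CPM, and Hkdc1 was below 1.1 CPM, with 2 to 20 counts, in every library.

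Compared per kilobase of transcript, where levels of different genes can be set side by side, Hk2 made up 24.2% to 35.3% of the summed Hk1, Hk2, Hk3 and Hkdc1 transcripts in wild-type at 2 months and 9.32% to 13.4% in libraries labelled PPARγ-KO. At 5 months its share was 22.3% to 23.9% in wild-type and 11.2% to 19.2% in the other genotype. Hk1 took 15.1% to 17.9% against 18.2% to 21.0% at 2 months and 9.50% to 10.9% against 14.7% to 23.7% at 5 months. Within this pool Hk2 thus held a smaller share, and Hk1 a larger one, in every library labelled PPARγ-KO than in any wild-type library of the same time.

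**Figure D1:**
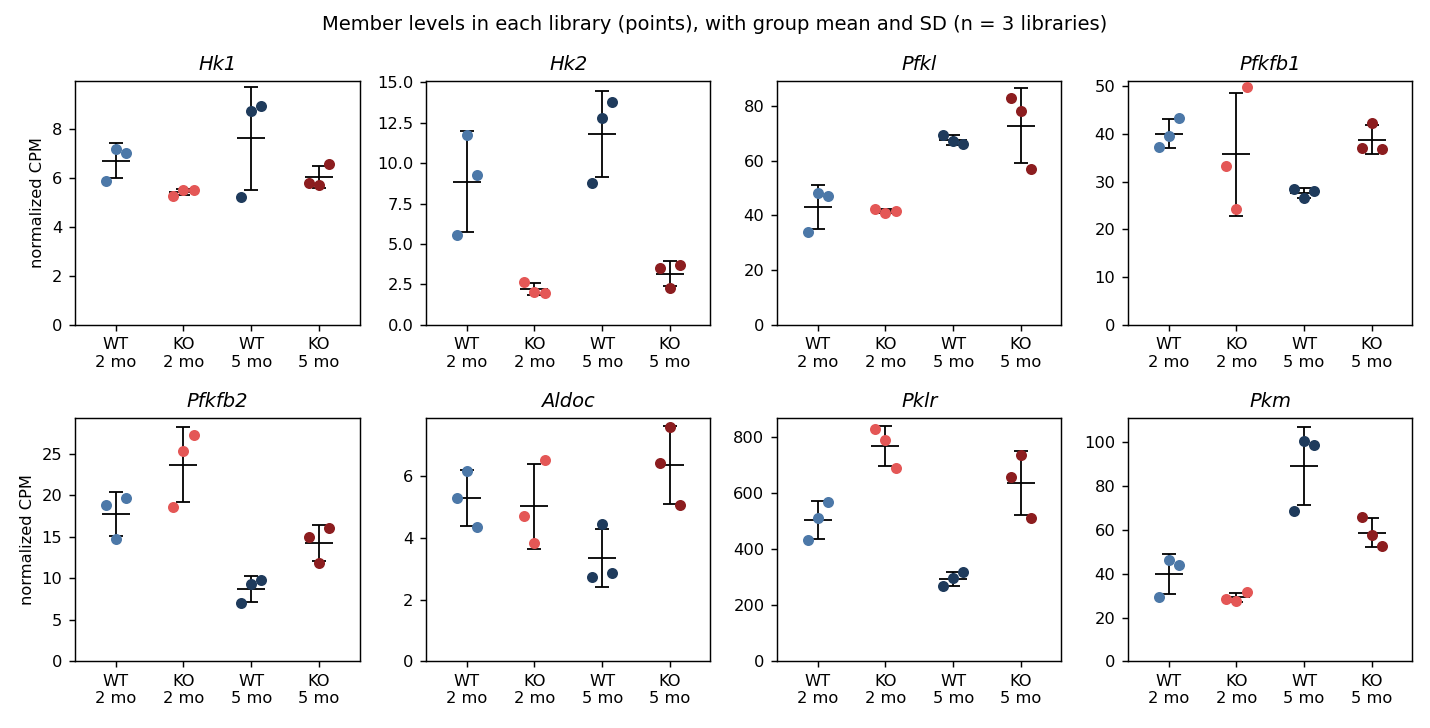
Normalized CPM of the 8 members in each of the 12 libraries (points, one panel per gene, each vertical axis from 0), with the mean and SD of the 3 libraries of a group. Hk2 lies between 1.97 and 3.72 CPM in all libraries labelled KO and between 5.56 and 13.8 CPM in WT, while Pklr lies above WT in the KO libraries of the same time.

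Pfkl, the liver phosphofructokinase, did not differ between genotypes beyond its spread. It measured 33.8, 48.3 and 47.0 CPM in wild-type and 42.4, 40.9 and 41.6 CPM in libraries labelled PPARγ-KO at 2 months (log2 difference -0.05, interval -0.33 to 0.23, edgeR adjusted p = 0.881). At 5 months wild-type libraries held 69.5, 67.2 and 66.1 CPM and those labelled PPARγ-KO 82.9, 78.3 and 57.2 CPM, the last of them below every wild-type library (0.12, interval -0.15 to 0.39, edgeR adjusted p = 0.566). Without this PPARγ-KO replicate 3 Pfkl was called higher (0.27, edgeR adjusted p = 0.0279). Pfkm, the muscle form, made up 28.0% to 53.2% of phosphofructokinase transcripts per kilobase over the 12 libraries and Pfkp, the platelet form, 1.64% to 4.83%, and Pfkl the remaining 43.8% to 68.0%. Pfkm rose at 5 months (0.46, SE 0.102, edgeR adjusted p = 0.00701) and Pfkp was not called (-0.60, interval -1.21 to 0.01, edgeR adjusted p = 0.166).

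Pfkfb1, the liver kinase/phosphatase, rose at 5 months. It measured 28.4, 26.5 and 28.1 CPM in wild-type and 37.2, 42.3 and 36.9 CPM in libraries labelled PPARγ-KO, with no overlap and narrow groups (0.50, SE 0.0752, edgeR adjusted p = 5.60e-04). When all 12 libraries shared 1 estimate of the spread, the call was lost (edgeR adjusted p = 0.163). At 2 months the values were 37.3, 39.6 and 43.4 CPM against 33.3, 24.3 and 49.8 CPM, so the libraries labelled PPARγ-KO held both the lowest and the highest value (-0.16, interval -0.79 to 0.48, edgeR adjusted p = 0.804).

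Pfkfb2, better known from heart, was the lower of this pair per kilobase and also rose at 5 months. Wild-type libraries held 6.99, 9.38 and 9.81 CPM and those labelled PPARγ-KO 15.05, 11.89 and 16.03 CPM, again without overlap (0.72, SE 0.151, edgeR adjusted p = 0.00523). At 2 months the groups overlapped, at 18.8, 14.8 and 19.7 CPM in wild-type against 18.6, 25.3 and 27.3 CPM (0.42, interval 0.06 to 0.78, edgeR adjusted p = 0.200). Yod1, on the opposite strand, overlaps the Pfkfb2 locus over 7032 bases, and strand use in the counting is not given in the sources used here. Yod1 itself was not called, with a log2 difference of 0.42 at 2 months (edgeR adjusted p = 0.152) and 0.02 at 5 months (edgeR adjusted p = 0.940, and -0.051 when scaled by library size alone). Pfkfb4, an inducible form of this family, was not called at either time (-0.93, edgeR adjusted p = 0.0629 at 2 months and -0.50, edgeR adjusted p = 0.200 at 5 months).

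Aldoc, the brain-type aldolase, was expressed at a few CPM and rose at 5 months. Wild-type libraries held 2.72, 4.43 and 2.87 CPM and those labelled PPARγ-KO 6.42, 7.59 and 5.05 CPM, without overlap (0.94, SE 0.221, edgeR adjusted p = 0.00972), on 46 to 148 counts a library. Leaving out wild-type replicate 3 took it just past the threshold (0.84, edgeR adjusted p = 0.0537). At 2 months the groups overlapped, at 5.29, 6.17 and 4.36 CPM against 4.71, 3.82 and 6.51 CPM (-0.06, interval -0.57 to 0.45, edgeR adjusted p = 0.920).

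Pklr, the liver pyruvate kinase, was the most abundant member and rose at both times. Wild-type libraries held 432, 510 and 569 CPM at 2 months and those labelled PPARγ-KO 827, 790 and 690 CPM. At 5 months the values were 269, 297 and 317 CPM in wild-type and 657, 737 and 512 CPM in the other genotype. The lowest library labelled PPARγ-KO was above the highest wild-type library at each time. The difference was 0.61 at 2 months (1.53-fold, SE 0.116, edgeR adjusted p = 0.0223) and 1.12 at 5 months (2.17-fold, SE 0.126, edgeR adjusted p = 3.32e-04). The call at 2 months was lost when wild-type replicate 2 (edgeR adjusted p = 0.0870), PPARγ-KO replicate 1 (edgeR adjusted p = 0.108) or PPARγ-KO replicate 2 (edgeR adjusted p = 0.0712) was left out, and with library size alone (edgeR adjusted p = 0.0561), at log2 differences of 0.53 to 0.62. The call at 5 months held in all 15 alternatives. The 4 erythroid markers are of interest because the same gene makes the red cell enzyme. They summed to 225 to 340 CPM in wild-type and 235 to 328 CPM in PPARγ-KO libraries at 2 months. At 5 months the sums were 307 to 346 against 315 to 594 CPM. Among these markers Alas2 lay higher without overlap at both times. Its mean was 74.3 against 122 CPM at 2 months and 71.2 against 102 CPM at 5 months. Of the 3 markers tested, 1 was called higher at each time. The other 2 had lower log2 values at 2 months and higher ones at 5 months. The part of erythroid cells in the Pklr result was not tested.

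Hcn3, on the opposite strand, overlaps Pklr over 711 bases and had 241 to 1558 counts a library. It rose with Pklr at 5 months (2.83-fold, edgeR adjusted p = 0.00109) and was not called at 2 months (0.73, edgeR adjusted p = 0.0696). Reads of the 2 genes cannot be told apart in the overlap if counting ignored the strand.

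Pkm, the pyruvate kinase of cells other than hepatocytes, fell at 5 months. It measured 68.8, 101 and 98.7 CPM in wild-type and 65.7, 57.6 and 52.7 CPM in libraries labelled PPARγ-KO, so that the lowest wild-type library was only just above the highest of the others (-0.60, SE 0.162, edgeR adjusted p = 0.0479). The threshold was missed in 7 of 15 alternatives: without wild-type replicate 2 (edgeR adjusted p = 0.123) or 3 (0.140), without PPARγ-KO replicate 2 (0.143) or 3 (0.139), with the replicate number as a block (0.139), with all 12 libraries in 1 fit (0.0571) and with library size alone (0.0559). At 2 months wild-type gave 29.3, 46.3 and 44.1 CPM and PPARγ-KO 28.3, 27.6 and 31.7 CPM, with wild-type replicate 1 inside the range of the other genotype (-0.45, interval -0.83 to -0.07, edgeR adjusted p = 0.191). Without that replicate Pkm was called lower at 2 months as well (-0.63, edgeR adjusted p = 0.00127). Gene counts do not separate the M1 and M2 splice forms.

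Macrophage markers were lower along with Pkm at 5 months, but their sum did not separate the genotypes at 2 months. The 10 markers were all detected and summed to 494 to 642 CPM in wild-type and 506 to 602 CPM in PPARγ-KO libraries at 2 months, and to 1439 to 1687 against 668 to 922 CPM at 5 months, where 8 of the 10 fell. The 8 stellate cell markers summed to 617 to 804 against 457 to 480 CPM at 2 months and 686 to 859 against 527 to 604 CPM at 5 months, with 1 and 5 of them called lower. In bulk liver, fewer cells of a type and less RNA per cell cannot be told apart, and the part of these cells in the values of Pkm, Hk3 and Hk2 was not tested. The summed level hides differences between markers at 2 months, where it overlapped between genotypes. Trem2, a receptor of lipid-associated macrophages, fell with Hk2 at that time (-1.60, SE 0.308, edgeR adjusted p = 0.0237), from 2.89 to 5.09 CPM in wild-type to 1.04 to 1.94 CPM. Gpnmb, of the same kind of macrophage, lay at 6.49 to 21.4 CPM in wild-type and 1.27 to 4.67 CPM in libraries labelled PPARγ-KO, without a call (edgeR adjusted p = 0.138). Clec4f (98.1 to 114 CPM in wild-type, 129 to 135 CPM in libraries labelled PPARγ-KO) and Vsig4 (28.7 to 31.4 against 34.1 to 37.5 CPM) instead lay higher without overlap. Neither was called. Of the 10 markers, 5 had a higher and 5 a lower log2 value at 2 months. Only 1 was called there, and 5 had an unadjusted p below 0.05.

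**Figure D2:**
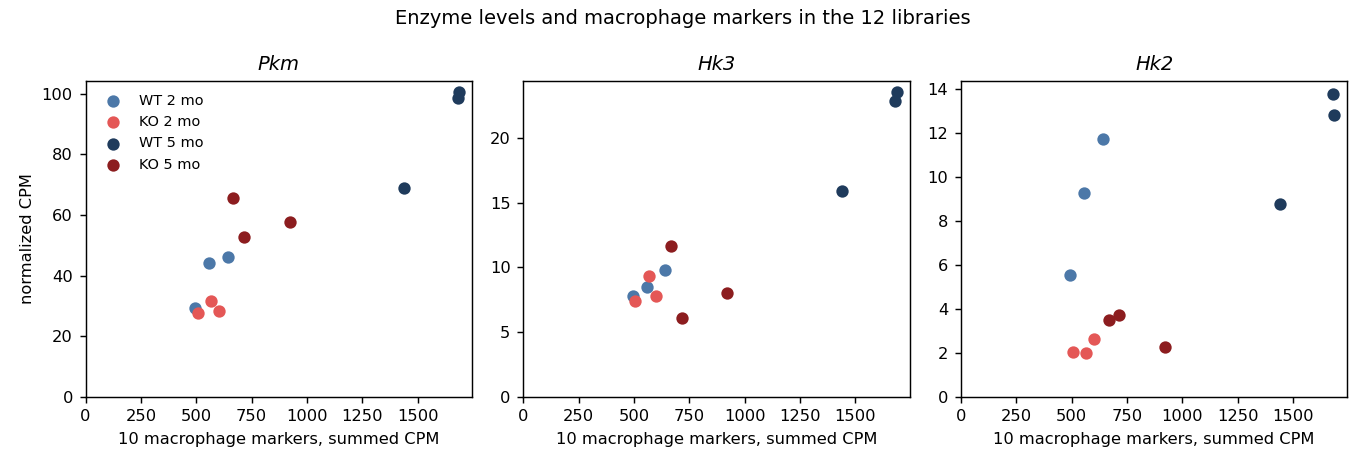
Normalized CPM of Pkm, Hk3 and Hk2 (vertical axes) against the summed CPM of 10 macrophage markers (horizontal axes) in the 12 libraries, coloured by group. The 3 WT libraries at 5 months, with 1439 to 1687 CPM of markers, hold the highest values of Pkm and Hk3. At 2 months the sums overlap between genotypes while Hk2 does not. Among single markers, Trem2 and Gpnmb (lower in KO) and Clec4f and Vsig4 (higher in KO) do not overlap there either.

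Counted over the members, 2 of 8 were called at 2 months, 1 higher (Pklr) and 1 lower (Hk2), where 3.56% of all 14573 genes tested were called, 1.78% higher and 1.78% lower. At 5 months 6 of 8 were called, with Pfkfb1, Pfkfb2, Aldoc and Pklr higher and Hk2 and Pkm lower, where 18.4% of 14138 genes were called, 8.90% higher and 9.51% lower. The median log2 difference of the members was -0.11 at 2 months and 0.31 at 5 months, beside -0.0048 and -0.0058 for all genes. Members and gene lists were chosen with earlier results of these data known. Counts and medians over them, here and below, are therefore descriptions and not a test of enrichment. Of the 8 hepatocyte markers, 0 were called higher at 2 months by edgeR (5 at an unadjusted p below 0.05) and 4 at 5 months, and their part in the members' values was not tested. Tested directly, the difference between the genotypes did not change from 2 to 5 months for any member at the threshold, where 1.57% of 15127 genes were called. With edgeR, 2 members had an unadjusted p below 0.05 in that test, Aldoc (0.99, SE 0.337, adjusted p = 0.160) and Pklr (0.50, SE 0.183, adjusted p = 0.206), and DESeq2 also called 0 of the 8. For Hk2 the change was 0.10 with an interval of -0.74 to 0.93, wide enough to hold a sizable change either way.

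**Figure D3:**
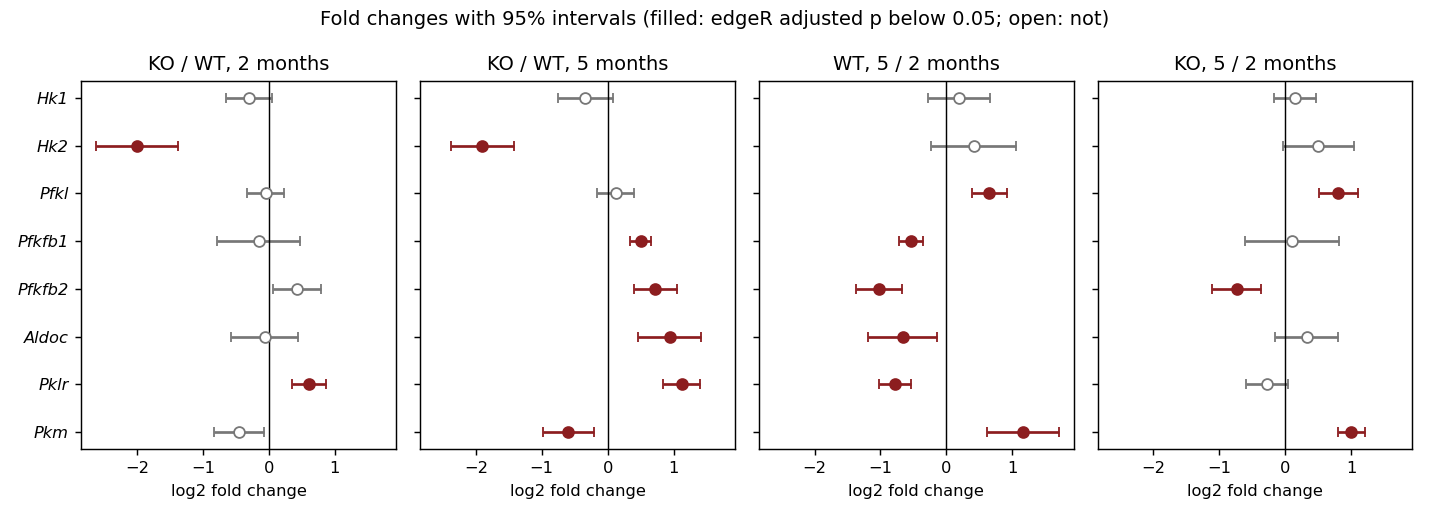
Log2 fold changes of the 8 members (horizontal axes) with 95% intervals from edgeR in 4 comparisons, KO against WT at 2 and 5 months and 5 against 2 months within each genotype. Filled points have an adjusted p below 0.05, which at 5 months leaves only Hk1 and Pfkl open in KO against WT.

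Ratios within a library, which do not depend on how libraries are scaled, show the balance of related forms. Pklr to Pkm sets a liver form against a non-liver one, whereas Hk1 and Hk2 are both forms of tissues other than liver. The ratio of Pklr to Pkm per kilobase was 17.0 to 22.8 in wild-type and 33.6 to 45.2 in libraries labelled PPARγ-KO at 2 months, a 2.06-fold difference. At 5 months it was 4.57 to 6.03 against 15.0 to 19.8, a 3.22-fold difference. Pkm accounted for 14.2% to 17.9% of pyruvate kinase transcripts in the 5-month wild-type livers, compared with 4.81% to 6.25% in the livers labelled PPARγ-KO of that age and with 4.21% to 5.54% in the 2-month wild-type livers.

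Hk1 to Hk2 was also higher in libraries labelled PPARγ-KO, from 0.430 to 0.741 in wild-type to 1.40 to 1.95 at 2 months and from 0.416 to 0.477 to 1.16 to 1.78 at 5 months. Hk2 was thus the higher of the 2 transcripts per kilobase in all 6 wild-type libraries and the lower in all 6 labelled PPARγ-KO. Neither of these ratios overlapped between genotypes at either time. Pfkfb1 to Pfkfb2, in contrast, was lower in PPARγ-KO libraries at 2 months (1.74 to 3.29 against 3.58 to 4.84) and overlapped at 5 months (4.16 to 6.42 against 5.10 to 7.33). Ratios over members chosen with results known are given as descriptions, without a test.

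**Figure D4:**
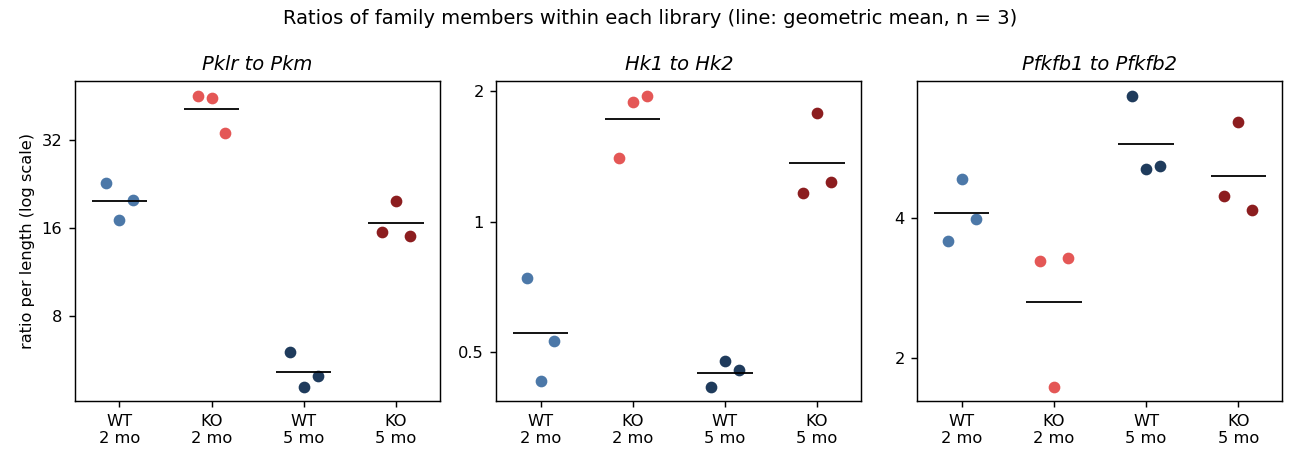
Ratio per kilobase of 3 pairs of related enzymes (vertical axes, log scale) in each library, with the geometric mean of 3 libraries as a line. Pklr to Pkm and Hk1 to Hk2 lie higher in all KO libraries than in WT of the same time, and Pfkfb1 to Pfkfb2 overlaps at 5 months.

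Each genotype was also compared between 2 and 5 months of feeding. In wild-type, 6 of 8 members were called between 2 and 5 months, where 46.4% of 14491 genes were called, 23.8% higher and 22.7% lower. In log2 units Pkm rose by 1.16 (SE 0.225, edgeR adjusted p = 0.00731) and Pfkl by 0.65 (SE 0.119, edgeR adjusted p = 0.00170). Pfkfb2 fell by 1.02 (SE 0.159, edgeR adjusted p = 4.53e-04), Pklr fell by 0.77 (SE 0.111, edgeR adjusted p = 2.66e-04), Pfkfb1 fell by 0.54 (SE 0.0832, edgeR adjusted p = 4.36e-04) and Aldoc fell by 0.66 (SE 0.237, edgeR adjusted p = 0.0404). Aldoc groups overlapped, and its call was lost without any 1 of wild-type replicates 1 and 2 at 2 months or 1 and 3 at 5 months (edgeR adjusted p = 0.0526 to 0.145) and with DESeq2 (adjusted p = 0.0510). Pfkfb1 was not called with all 12 libraries in 1 fit (edgeR adjusted p = 0.0540). Hk2 was not called (0.41, interval -0.23 to 1.05, edgeR adjusted p = 0.258), nor was Hk1.

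In the libraries labelled PPARγ-KO, 3 of 8 were called over the same time, where 44.9% of 14478 genes were called, 22.7% higher and 22.2% lower. Pkm rose 2.01-fold (1.00, SE 0.0910, edgeR adjusted p = 1.06e-05), Pfkl rose by 0.81 (SE 0.127, edgeR adjusted p = 0.00131) and Pfkfb2 fell by 0.74 (SE 0.162, edgeR adjusted p = 0.00619), all kept in each of 15 alternatives. Pklr was not called (-0.28, interval -0.60 to 0.04, edgeR adjusted p = 0.139), though without PPARγ-KO replicate 2 at 5 months it was (-0.39, edgeR adjusted p = 0.0346). The wild-type and PPARγ-KO time courses share their groups with the comparisons of genotype, and whether libraries of the 2 times were prepared together is not given in the sources used here, so feeding time and library batch cannot be told apart.

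Per kilobase, the order of members changed with group. Pklr was highest in all 4, at 156 ± 21.3 CPM per kilobase (SD, n = 3) in wild-type at 2 months, 238 ± 21.9 in PPARγ-KO at 2 months, 91.0 ± 7.50 in wild-type at 5 months and 196 ± 35.2 in PPARγ-KO at 5 months. In 2-month wild-type livers Pfkfb1 (9.98 ± 0.774), Pkm (7.98 ± 1.85) and Pfkl (6.44 ± 1.20) came next, neighbours whose spreads meet. In 5-month wild-type livers Pkm (17.9 ± 3.56) stood above Pfkl (10.1 ± 0.261), and Pfkl above Pfkfb1 (6.88 ± 0.249). In 5-month PPARγ-KO livers the spread of Pfkl (10.9 ± 2.06) met those of Pkm (11.7 ± 1.31) and Pfkfb1 (9.66 ± 0.755), while the spreads of Pkm and Pfkfb1 did not meet. Hk2 came next after these in wild-type at 5 months (1.97 ± 0.446) and was last in PPARγ-KO at both times (0.372 ± 0.0610 and 0.529 ± 0.132).

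The following counts cover 18 of the 20 other glycolytic enzymes listed and are not counts of the full list, whose 2 remaining genes are left out whatever their result. Of the 18, 17 were tested, and 0 were called at 2 months by edgeR or DESeq2, with 3 at an unadjusted p below 0.05 in edgeR (median of the list -0.19). Without wild-type replicate 1, 4 were called. At 5 months 3 rose, namely Hkdc1 (1.47, edgeR adjusted p = 0.0499, lost in 9 of 13 alternatives), Gpi1 (0.55, edgeR adjusted p = 0.00245) and Pfkm, and 1 fell, Hk3, whose call was lost in 4 of 15 alternatives (median 0.046). Of all genes tested, 3.56% were called at 2 months and 18.4% at 5 months, beside which the 5-month count is not read as a result. Without wild-type replicate 2 or 3, or with the replicate block, 2 of the 17 were called at 5 months. Gpi1 interconverts glucose and fructose phosphates. Enzymes between triose phosphate and pyruvate, such as Tpi1, Pgk1, Pgam1 and Eno1, were not called at either time. Gapdh ranged from 14.9 to 156 CPM among the wild-type libraries at 2 months and from 12.2 to 184 CPM among those labelled PPARγ-KO at 5 months, and is reported as uncertain because it has many near-identical pseudogenes.

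**Figure D5:**
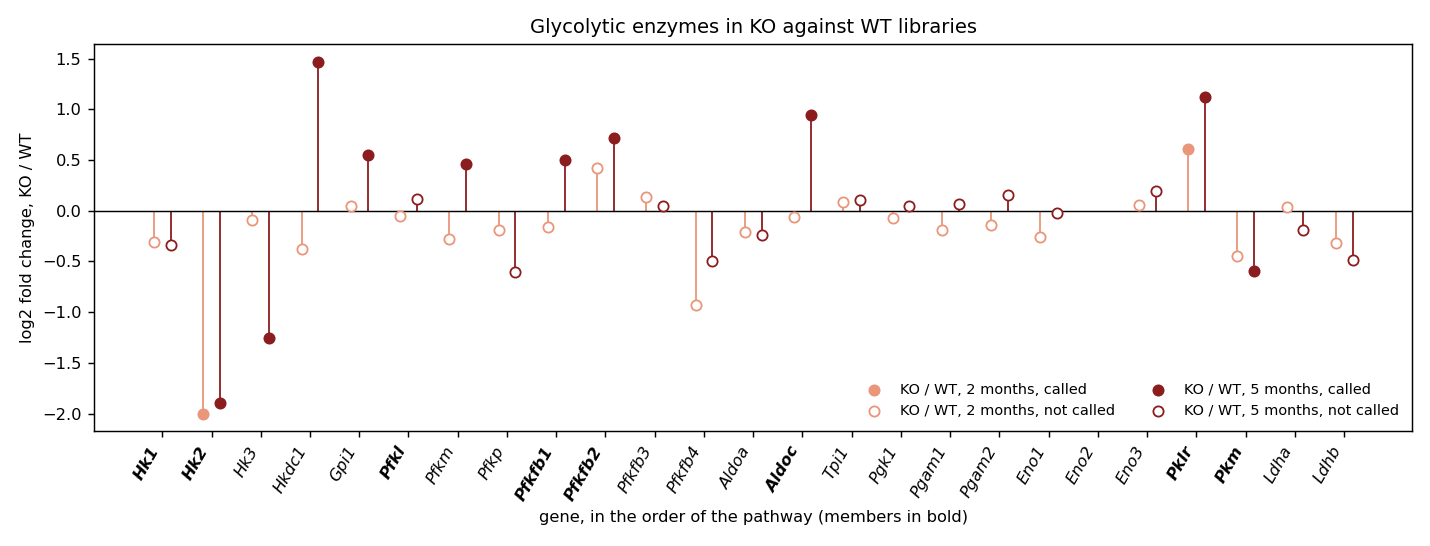
Log2 fold change of glycolytic enzymes in KO against WT libraries (vertical axis) at 2 and 5 months, in pathway order with members in bold. Filled points have an edgeR adjusted p below 0.05, Eno2 was not tested, the uncertain Gapdh is left out, and the called genes lie from the hexokinase step to aldolase and at pyruvate kinase.

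Among 21 genes of sugar entry and control, 3 rose at 2 months and 1 fell, where 3.56% of all genes tested were called. The 3 were Gckr (0.43, edgeR adjusted p = 0.0334), Khk, the fructose kinase (0.42, edgeR adjusted p = 0.0479), and Mlxipl (0.46, edgeR adjusted p = 0.0267). The gene that fell was Slc2a1, the glucose transporter GLUT1 (-0.55, edgeR adjusted p = 0.0357). Each of these 4 calls was lost in 5 or 6 of 15 alternatives, including when wild-type replicate 2 or 3 or PPARγ-KO replicate 1 or 2 was left out. At 5 months 7 rose and 1 fell, where 18.4% of all genes tested were called. Gckr (0.46, edgeR adjusted p = 0.00121), Khk (0.49, edgeR adjusted p = 8.76e-04) and Mlxipl (0.45, edgeR adjusted p = 0.0240) were again higher. The Mlxipl call was lost in 3 of 15 alternatives, with library size alone and without PPARγ-KO replicate 1 or 3 (edgeR adjusted p up to 0.105). Also higher at 5 months were the fructose transporter Slc2a5 (0.95, edgeR adjusted p = 8.33e-04) and the triokinase Tkfc (0.64, edgeR adjusted p = 0.00273). The pyruvate dehydrogenase kinases Pdk1 (0.64, edgeR adjusted p = 2.28e-04) and Pdk2 (0.33, edgeR adjusted p = 0.00502) rose as well. Slc16a3, the lactate exporter MCT4, fell (-1.21, edgeR adjusted p = 0.00136).

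Across the 12 libraries, the 5 genes with the pattern most like Hk2, among 13171 with a mean of at least 1 CPM, were Chsy1 (r = 0.972), Plin2 (0.971), Gprc5b (0.967), Vnn1 (0.957) and Ermp1 (0.953). Plin2 coats lipid droplets. For Pklr they were Hcn3 (0.980), which shares bases with it, Ralgps1 (0.958), Acly (0.952), Susd4 (0.940) and Acot11 (0.939), and Acly makes acetyl-CoA for lipogenesis. For Pkm they were Capg (0.989), Ubd (0.987), Tnfrsf21 (0.980), Gng11 (0.980) and Hcls1 (0.978). These r describe log2 CPM over 4 groups of 3 libraries, which share genotype, feeding time and depth, and carry no p.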

How the data were processed

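Liver RNA of 12 mouse libraries was sequenced on the Illumina NovaSeq platform. The authors deposited whole-number counts of reads per gene, not normalized, for 54532 genes a library, with gene coordinates, lengths and types on mm10. The paper names STAR as the aligner and the submitters' processing notes name HISAT2. The counting program, annotation version and use of strand are not given in the sources used here. Across these files, 27 gene names stored as spreadsheet dates were restored from the gene identifier.

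Genotypes were compared at each time, and times within each genotype, in fits of 6 libraries, and the change of the genotype difference in a fit of all 12, with edgeR 4.0.16 in R 4.3.3 (filterByExpr, TMM, robust quasi-likelihood fit, two-sided F-test, Benjamini-Hochberg over all genes tested). Tests were tried on simulated data first. Levels per kilobase divide normalized CPM by the deposited gene length. Of the glycolytic list, 18 of 20 genes are described, and the other two are not reported here. The members and gene lists were chosen with earlier results of these data known. Genes named beside the members are partner isoforms, listed genes past the threshold in either genotype comparison, and the 5 genes most alike to Hk2, Pklr and Pkm by Pearson r of log2(CPM + 0.5). Mlxipl and Hk3 over time, Hcn3, Yod1, Cfd, Trem2, Gpnmb, Alas2, Gapdh and a few uncalled enzymes were named after their values were seen. Alternatives were other thresholds, DESeq2 1.42.0, other scalings and filters, a replicate block, all 12 libraries in 1 fit, and each library left out in turn.

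The labels number repeats and do not name animals, so p-values measure the spread between these samples, which may be technical. Replicates differed beyond sampling noise, with a chi-square per gene of 9.40 to 31.7 between most libraries of a group. Wild-type replicates 2 and 3 at 5 months were much more alike (2.44), and the labels do not tell whether they are independent samples. At 2 months, deviations from the group means of same-numbered libraries in the 5000 most abundant genes correlated between genotypes at 0.220, 0.324 and 0.140. Other pairs gave -0.274 to 0.114, so the numbers may pair the libraries there, though so few pairs do not establish it. The main fits used no pairing. Between the times in wild-type, same-numbered libraries correlated at 0.238, 0.185 and 0.0191, and other pairs at -0.287 to 0.266. Same-numbered libraries of the 2 genotypes at 5 months gave -0.078, -0.060 and -0.179, and no pairing was read there.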

Additional observations from a re-analysis of the deposited data

Results flagged for a closer look

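Although no member's genotype difference changed between the times at the threshold, 4 genes named beside them did by edgeR's test of that change. Pfkm went from -0.28 at 2 months, where all 3 libraries labelled PPARγ-KO lay below wild-type without a call (edgeR adjusted p = 0.163), to 0.46 at 5 months, where all 3 lay above, a change of 0.73 (SE 0.140, edgeR adjusted p = 0.0154). Pparg itself changed by 0.62 (SE 0.145, edgeR adjusted p = 0.0432). Slc2a1 changed by 0.64 (SE 0.145, edgeR adjusted p = 0.0375), from -0.55 to 0.09, and Pdk1 by 0.59 (SE 0.127, edgeR adjusted p = 0.0290), from 0.04 to 0.64. Of 20 alternatives each, the calls were lost in 2, 10, 12 and 7 for these genes in that order, with the largest edgeR adjusted p at 0.0547, 0.122, 0.109 and 0.0935 for Pfkm, Pparg, Slc2a1 and Pdk1.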

How the results depend on the processing

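The alternatives at other thresholds reuse the main fit, so at an adjusted p below 0.1 a call cannot be lost. With these included, member calls held in 236 of 255 alternatives and were lost in 19. None of the called values changed sign, and members that were not called became so in 19 of 385. The cause of these changes was not tested unless the setting itself shows it. The replicate block, a possible pairing at 2 months, moved the count of all genes called there from 519 to 817 and changed no member's call at that time. At 2 months the members called were 4 with an unadjusted p below 0.05 and 1.3-fold, 4 with no filter on low counts, and 1 with library size alone, and 1 to 3 with a library left out. All genes called at 2 months came to 1063 at an adjusted p below 0.1, 1608 with the unadjusted threshold, 1562 with no filter, 947 with DESeq2, 1153 with all 12 libraries in 1 fit, and 117 to 1577 with a library left out, the highest without wild-type replicate 1. At 5 months the count was 1593 to 3078 with a library left out, against 2602, the lowest without wild-type replicate 3, and that of members 4 to 7, against 6. Of the members over time in PPARγ-KO, 3 to 5 were called with a library left out, 5 without replicate 2 at 5 months. For the change of the genotype difference, 2 members were called with the unadjusted threshold and 2 with no filter (Aldoc and Pklr), and 0 to 1 with a library left out, Pfkfb1 without PPARγ-KO replicate 3 at 2 months (adjusted p = 0.00797). All genes called there came to 519 at an adjusted p below 0.1, 1563 with the unadjusted threshold, 793 with no filter, 565 with DESeq2 and 83 to 567 with a library left out, against 238. Values near 0 that were not called crossed it when a library was left out: at 2 months Pfkl (-0.19 to 0.042), Pfkfb1 (-0.47 to 0.053) and Aldoc (-0.30 to 0.095), over time in PPARγ-KO Pfkfb1 (-0.11 to 0.43), for the change of the genotype difference Hk1 (-0.25 to 0.096), Hk2 (-0.16 to 0.34) and Pkm (-0.31 to 0.027), and Yod1 at 5 months (-0.083 to 0.091), which also went to -0.051 with library size alone. Of the genes with values in the text, Hkdc1 (2 to 20 counts), Slc16a3 (8 to 73), Pfkfb4 (24 to 57), Hk2 (36 to 264) and Aldoc (46 to 175) rest on few counts.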

Other observations

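Over the months of feeding, genes around the members also moved within each genotype. Mlxipl, which encodes ChREBP, fell from 332 to 145 CPM in wild-type (-1.20, SE 0.117, edgeR adjusted p = 2.79e-05) and from 459 to 197 CPM in libraries labelled PPARγ-KO (-1.22, SE 0.0851, edgeR adjusted p = 2.38e-06). Hk3 rose in wild-type from 8.68 to 20.8 CPM (1.26, SE 0.162, edgeR adjusted p = 1.56e-04), as all 10 macrophage markers did.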
